A study of Mus musculus with 10 samples.

Results

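Circadian clock and clock output genes were examined in right ventricle (RV), left ventricle (LV) and ventricular septum of the mouse heart. The set holds 10 of the 22911 genes that the arrays name, namely Clock, Npas2, Per1, Per2, Per3, Cry1, Nr1d1, Nr1d2, Dbp and Tef. A probe counted as belonging to the set when its RefSeq accession maps to 1 of these symbols, which gave 19 probes, and 17 probes of 9 genes were bright enough to be tested. The tissue came from C57BL/6N mice, with 4 RV, 3 LV and 3 septum samples, each on its own single-colour Agilent array. No genotype, surgery or drug is named for any of these samples, so the labels separate the groups only by region of the heart. The animals were decapitated under deep anaesthesia, both ventricles were perfused with cold phosphate-buffered saline, and the tissue was frozen in liquid nitrogen before RNA extraction with TRIzol. Age, sex, light schedule and hour of collection are not given in the sources used here. The series states that individuals differed between experiments, and the labels do not say whether arrays with the same number in their title, such as RV1, LV1 and septum 1, came from 1 heart.

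The circadian clock is a feedback loop of transcription that runs in almost every cell, cardiomyocytes included. CLOCK, or its relative NPAS2, pairs with BMAL1, the product of Arntl, and switches on genes that carry E-boxes, among them the Per, Cry, Nr1d, Dbp and Tef genes. PER and CRY proteins then shut the activators off, while REV-ERB alpha and beta, the products of Nr1d1 and Nr1d2, repress Arntl and other genes through a response element shared with the ROR receptors. Transcripts of most of these genes rise and fall over the day, so the hour at which a heart is taken can set their level. DBP and TEF are output factors of the PAR bZIP family, which bind D-boxes.

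The arrays lay on 2 glass slides. Slide 1 carried every array numbered 1 or 2 in its title, that is 2 arrays of each region, and slide 2 carried RV3, RV4, LV3 and septum 3. Slide and title number therefore cannot be told apart beyond contrasts within a slide. These are number 2 with number 1 on slide 1, and RV4 with RV3 on slide 2. Between 53.7% and 64.0% of the probes were well above background on an array and no spot was saturated. The 75th percentile of the signal was 514 to 604 on slide 1 and 621 to 706 on slide 2. Each of the 10 cardiomyocyte markers was detected above background on all arrays. A level below is the log2 signal of a probe minus that array's 75th percentile on the log2 scale, and 0 marks that percentile. A difference of 1 on this scale is a doubling of the signal. Levels of different probes are not set against each other, since probes differ in how strongly they bind.

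Promoter sequences show which clock elements the genes carry close to their start sites. RefSeq promoters of assembly GRCm38.p6, from 250 bases before to 50 after a start, were at hand for 9 of the 10 genes, with 13 start sites among them. The 4 windows below belong to the gene with the largest difference between slides (Nr1d1), to the gene of the set called lower on slide 2 under scaling by the 75th percentile (Per1), to the gene with the largest difference between regions (Cry1) and to the single gene with D-boxes in its window (Per3). Capitals mark the E-box CACGTG, its variant CACGTT, the D-box TTATGTAA or TTACGTAA and the ROR element core AGGTCA or GGGTCA, each searched on both strands. The 4 motifs do not overlap in these windows.
Nr1d1, chr11:98775328-98775627, minus strand: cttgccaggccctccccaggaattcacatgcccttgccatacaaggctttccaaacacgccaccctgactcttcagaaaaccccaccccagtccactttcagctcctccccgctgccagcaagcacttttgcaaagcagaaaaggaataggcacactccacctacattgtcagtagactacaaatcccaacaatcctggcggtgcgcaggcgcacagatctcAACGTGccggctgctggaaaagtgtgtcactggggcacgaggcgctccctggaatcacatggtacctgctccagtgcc
Per1, first start, chr11:69098699-69098998, plus strand: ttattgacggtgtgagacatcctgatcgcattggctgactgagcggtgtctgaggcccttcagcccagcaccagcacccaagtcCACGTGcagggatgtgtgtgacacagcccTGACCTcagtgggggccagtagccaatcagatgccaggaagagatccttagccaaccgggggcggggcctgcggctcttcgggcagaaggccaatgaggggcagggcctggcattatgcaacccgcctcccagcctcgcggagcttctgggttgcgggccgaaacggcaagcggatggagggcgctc
Cry1, chr10:85185005-85185304, minus strand: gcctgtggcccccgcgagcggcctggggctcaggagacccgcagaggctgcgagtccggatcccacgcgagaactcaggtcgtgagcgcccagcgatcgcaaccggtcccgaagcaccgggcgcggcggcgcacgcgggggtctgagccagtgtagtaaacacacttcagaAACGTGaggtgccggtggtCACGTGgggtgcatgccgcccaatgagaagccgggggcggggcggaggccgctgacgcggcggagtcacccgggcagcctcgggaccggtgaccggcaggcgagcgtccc
Per3, chr4:151044616-151044915, minus strand: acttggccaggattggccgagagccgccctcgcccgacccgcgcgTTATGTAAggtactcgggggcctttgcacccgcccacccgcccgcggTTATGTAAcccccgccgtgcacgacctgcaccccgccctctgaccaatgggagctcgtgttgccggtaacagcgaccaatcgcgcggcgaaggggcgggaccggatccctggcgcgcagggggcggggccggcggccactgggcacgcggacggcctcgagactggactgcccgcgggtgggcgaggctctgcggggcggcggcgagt
The Nr1d1 window held the E-box variant 28 bases before the start, read as AACGTG. The first Per1 window held an E-box at -166 and a ROR element core at -137, and the second Per1 window held no motif. The Cry1 window held an E-box at -60 and the variant at -79, and the Per3 window held D-boxes at -205 and -158. Both Tef starts had an E-box, at -127 and -138. The ROR element core also stood in the Nr1d2 window and in that of the third Clock start, and the Npas2 and Dbp windows held none of the motifs. Among 32851 mouse promoters of this length, 7.15% held the E-box, 4.68% the variant, 1.06% a D-box and 27.5% the ROR element core. The cyclic AMP response element TGACGTCA, found in 1.79% of all promoters, was in none of the 13 windows.

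The first question was whether the clock genes differ between the regions. None of the 9 tested genes was called between any pair of regions, and none reached an unadjusted p below 0.05 (limma, Benjamini-Hochberg adjustment over all probes, call at an adjusted p below 0.05). For RV against LV the differences ran from -0.05 to 0.14, the smallest adjusted p was 0.75, and 3.86% of all probes were called. With arrays left out in turn, the largest absolute difference between RV and LV lay between 0.06 (Cry1 without RV4) and 0.45 (Nr1d1 without LV3), and none was called. For RV against septum they ran from -0.66 to 0.13, beside 2.08% of all probes called. For septum against LV they ran from -0.05 to 0.63, and 0% of all probes were called, with 862 of 30234 at an unadjusted p below 0.05. The -0.66 and 0.63 belonged to Cry1, whose probe was bright enough to be tested only through the septum, so they are a description. The methods' analysis of variance with Tukey correction called 435 probes between septum and LV, or 167 after Benjamini-Hochberg adjustment of its F test, and none of the 9 genes in any pair. No gene had arrays of 1 region entirely above those of another, whereas 19.1% of all probes did between RV and LV, 13.7% between RV and septum and 6.99% between septum and LV. A missed threshold does not show equal levels, and the 95% intervals of the differences between RV and LV reached from -0.88 to 0.98 over the 9 genes. The widest belonged to Cry1 and Nr1d1. These intervals come from a model with no term for the slide, and with the slide as a block that of Nr1d1 was -0.19 to 0.14 and that of Cry1 -0.89 to 0.66. In bulk tissue, fewer cells of a type and less RNA per cell cannot be told apart.

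The second question was whether arrays of different slides and title numbers differ, since the hour of collection can differ between them. On slide 2, 3 of the 9 genes were called, Nr1d1 and Per2 higher and Per1 lower, while 43.8% of all probes were called in the same comparison with region in the model. The share of called genes was thus no larger than the background. The arrays of the slides did not overlap for the same 3 genes, against 26.1% of all probes. The median slide difference over the 9 genes was 0.12, beside -0.02 over all probes. Between number 2 and number 1, none of the 9 genes was called, against 0.00331% of all probes (1 of 30234). An unadjusted p below 0.05 was reached by 3 of the 9 genes, beside 4171 of the 30234 probes. Arrays did not overlap for 4 of the 9 genes, against 14.9% of all probes. Across all 4 title numbers an F test called 3 of 9 genes by the brightest probe, Nr1d1, Per2 and Nr1d2, beside 28.3% of all probes. Nr1d1 and Per2 kept this call without any single array, and Nr1d2 kept it only without RV3. The slide difference of a gene did not differ between regions past the threshold for any of the 9, by the interaction of region and slide, where 0.175% of all probes were called and the smallest adjusted p of the 9 was 0.764.

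**Figure D1:**
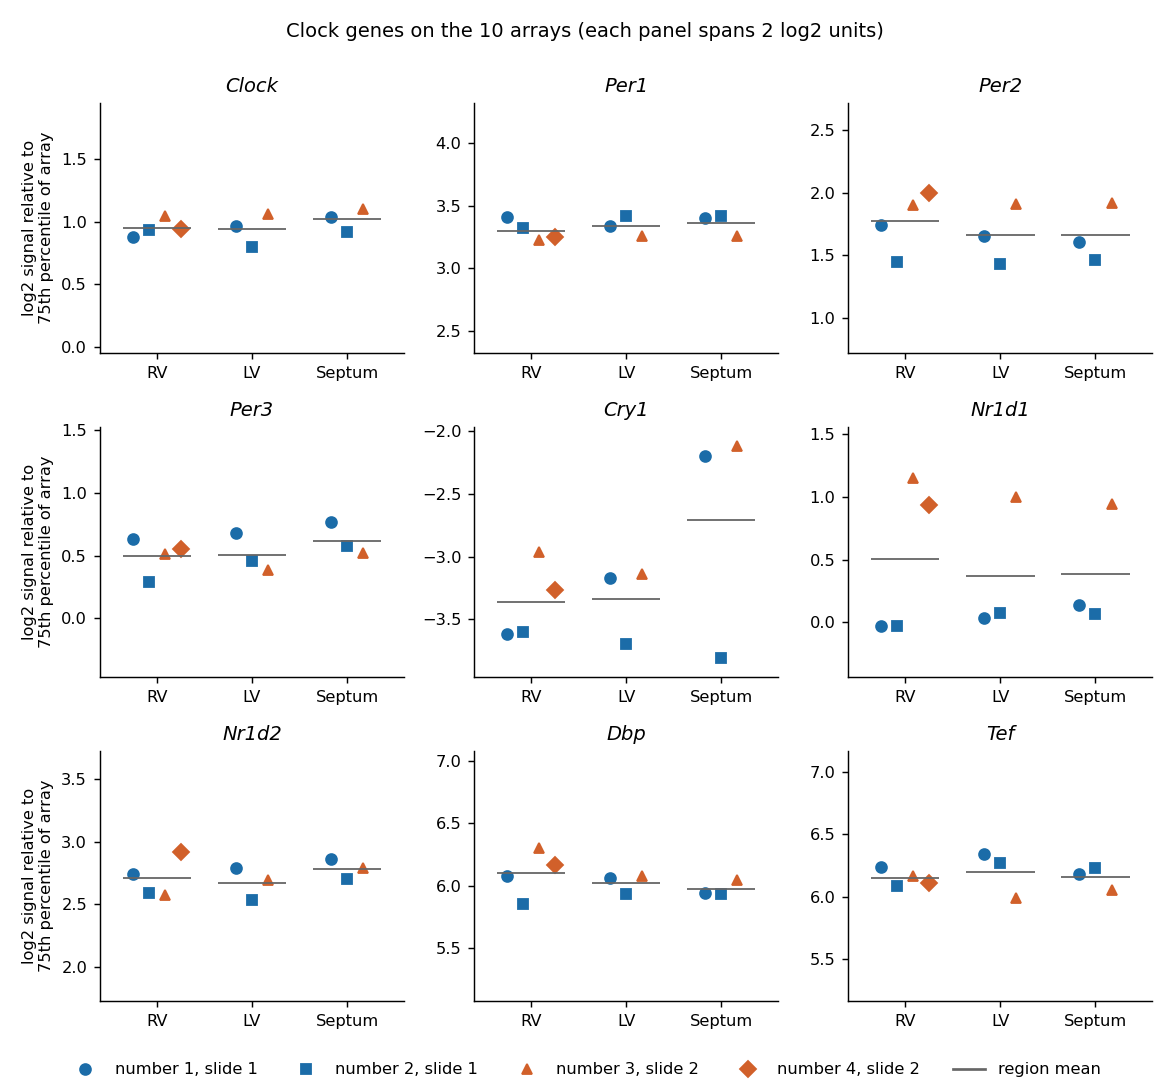
Level of each tested clock gene (log2 signal relative to the 75th percentile of the array, brightest probe) on the 10 arrays, by region, with colour for the slide, symbol for the title number and a line for the region mean. Nr1d1 sat between -0.03 and 0.13 on slide 1 and between 0.94 and 1.15 on slide 2 in all 3 regions, while Cry1 had its highest levels in septum 1 and septum 3.

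The plot of levels by array shows that the Nr1d1 and Per2 points separate by colour in each region, while the region means of most genes lie within the spread of their arrays. Each panel spans the same range, so the narrow spread of Per1, Clock and Tef can be compared directly with that of Cry1 and Nr1d1.

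Clock, which encodes the activator partner of BMAL1, varied little. Its level was 0.95 ± 0.07 in RV (SD, n = 4), 0.94 ± 0.14 in LV (n = 3) and 1.02 ± 0.10 in septum (n = 3). On slide 2 it was 0.94 to 1.101, and on slide 1 it was 0.80 to 1.04. The slide difference of 0.12 (SE 0.05) was not called (adjusted p = 0.0947), and the second probe differed by 0.11. A further Clock probe was well above background on 1 of the 10 arrays and was not tested. Npas2, which can stand in for CLOCK, had 1 probe that was not well above background on any array, so it has no measured level or fold here.

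Per1, an early responding repressor gene, had the smallest spread of the set, with an SD of 0.08 over the 10 arrays. It measured 3.41, 3.34 and 3.41 in RV1, LV1 and septum 1, and 3.32, 3.42 and 3.42 in RV2, LV2 and septum 2. On slide 2 it measured 3.22, 3.25, 3.26 and 3.26 in RV3, RV4, LV3 and septum 3. Every array of slide 2 was below every array of slide 1. The difference was -0.13 (SE 0.04, adjusted p = 0.0312), a fold of 0.913, and it was 0.02 when arrays were scaled by their median, so its direction rests on the scaling. The scaling by the median moved the median slide difference of all probes from -0.02 to 0.13. Per1 was called without LV1 or without RV2 (adjusted p = 0.0373 and 0.0389), and it lost the call when any other array was left out, with adjusted p from 0.0509 without septum 1 to 0.112 without septum 3. It was also not called among RV arrays alone (adjusted p = 0.302) or among LV and septum arrays alone (0.135). The region means were 3.30 ± 0.08 in RV, 3.34 ± 0.08 in LV and 3.36 ± 0.09 in septum.

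Per2, a core repressor of the loop, measured 1.74, 1.65 and 1.61 in RV1, LV1 and septum 1, and 1.44, 1.43 and 1.46 in RV2, LV2 and septum 2. It measured 1.90, 2.0, 1.91 and 1.91 in RV3, RV4, LV3 and septum 3. By this brightest probe the arrays thus fell into 3 levels by number, lowest for number 2, higher for number 1 and highest on slide 2, with no overlap. The slide difference was 0.37 (SE 0.07, adjusted p = 0.00512), a fold of 1.29, and its size was 0.37 in LV, 0.38 in septum and 0.36 in RV. It was called in 19 of 21 settings of the analysis, and was not called among RV arrays alone (adjusted p = 0.106) or when the Per2 probes were averaged. The second, much dimmer Per2 probe went the other way, with -0.23 (SE 0.09, adjusted p = 0.0722), and the average of both probes differed by 0.07 (adjusted p = 0.328). Number 2 against number 1 gave -0.22 (SE 0.05, adjusted p = 0.245) by the brightest probe. By the second probe these numbers overlapped, at -2.92 to -2.67 for number 1 and -2.78 to -2.53 for number 2. The region means of Per2 were 1.77 ± 0.24 in RV, 1.66 ± 0.24 in LV and 1.66 ± 0.23 in septum.

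Per3, the PER paralog whose promoter window carried the D-boxes shown above, measured 0.63, 0.68 and 0.77 in RV1, LV1 and septum 1. It measured 0.29, 0.46 and 0.57 in RV2, LV2 and septum 2, and 0.51, 0.56, 0.39 and 0.52 in RV3, RV4, LV3 and septum 3. Within slide 1 every array numbered 2 was below every array numbered 1. That difference was -0.25 (SE 0.07, adjusted p = 0.274), and the second Per3 probe gave -0.40 (SE 0.06, adjusted p = 0.168), so neither was called. Between slides the probes differed in sign, with -0.06 (SE 0.09, adjusted p = 0.596) and 0.31 (SE 0.12, adjusted p = 0.0654). The region means were 0.50 ± 0.15 in RV, 0.51 ± 0.15 in LV and 0.62 ± 0.13 in septum.

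Cry1, the partner of the PER proteins in repression, was the most variable gene of the set by its brightest probe. The SD over the arrays was 0.59 by that probe and 0.22 by the second Cry1 probe. The brightest Cry1 probe was well above background on 8 of 10 arrays, all but RV2 and LV2. The probe passed the filter on dim probes only through the septum, the region with its highest mean, so its region differences are given as a description. It measured -3.62, -3.60, -2.97 and -3.27 in RV1 to RV4, -3.17, -3.70 and -3.14 in LV1 to LV3, and -2.19, -3.81 and -2.12 in septum 1 to septum 3. Septum 1 and septum 3 were higher than all other arrays, and septum 2 was the lowest array. The septum was 0.63 above LV (95% interval -0.29 to 1.55) and RV was 0.66 below septum (difference -0.66, interval -1.51 to 0.20), and neither was called. Without septum 2 these differences were 1.18 and -1.21, without septum 1 they were 0.37 and -0.40, and without septum 3 they were 0.34 and -0.36. With the slide as a block RV against septum was -0.75. The second Cry1 probe had the opposite sign, with -0.10 for septum against LV and 0.16 for RV against septum, and septum 1 was its lowest array at -4.08. Between slides Cry1 differed by 0.55 (SE 0.29, adjusted p = 0.153) by the brightest probe and by 0.19 (SE 0.13, adjusted p = 0.26) by the second. The difference was 0.34 without septum 2 (adjusted p = 0.0712). It was called without septum 1 (0.71, adjusted p = 0.0414) and when both probes were averaged (0.37, adjusted p = 0.0314). Between number 2 and number 1 the probes differed by -0.71 and 0.31, and neither was called. The first value was -0.30 without septum 2 and -0.43 without septum 1.

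Nr1d1, which encodes the repressor REV-ERB alpha, showed the largest slide difference of the set. It measured -0.03, 0.04 and 0.13 in RV1, LV1 and septum 1, and -0.03, 0.08 and 0.07 in RV2, LV2 and septum 2. On slide 2 it measured 1.15 in RV3, 0.94 in RV4, 0.998 in LV3 and 0.94 in septum 3. All 6 arrays of slide 1 were below all 4 arrays of slide 2, with a gap far wider than the range within either slide. The means were 0.04 ± 0.06 (SD, n = 6) and 1.01 ± 0.10 (n = 4). The difference was 0.97 (SE 0.06, adjusted p = 9.49e-05), a fold of 1.96, and 1.32% of all probes differed by as much in either direction. It was 1.08 in RV, 0.94 in LV and 0.84 in septum. Nr1d1 was called in all 21 settings, with differences from 0.89 among LV and septum arrays alone to 1.12 after scaling by the median. Number 2 differed from number 1 by -0.01 (SE 0.08). The gene has 1 probe on the array, so no second probe could be compared. The region means of 0.51 ± 0.63 in RV, 0.37 ± 0.54 in LV and 0.38 ± 0.49 in septum carry the slides in their spread, and RV has 2 of its 4 arrays on slide 2 where the other regions have 1 of 3.

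Nr1d2, which encodes the paralog REV-ERB beta, measured 2.74, 2.79 and 2.86 in RV1, LV1 and septum 1, and 2.59, 2.53 and 2.70 in RV2, LV2 and septum 2. It measured 2.58, 2.92, 2.70 and 2.79 in RV3, RV4, LV3 and septum 3, so the slides overlapped. The slide difference was 0.05 (SE 0.09, adjusted p = 0.679) by this probe, and -0.02 without RV4 or 0.10 without RV3. The second probe rose on slide 2 by 0.26 (SE 0.06, adjusted p = 0.0135), from 1.19 to 1.60 on slide 1 to 1.55 to 1.73 on slide 2. Within slide 1 the arrays numbered 2 lay below those numbered 1, with -0.19 (SE 0.05, adjusted p = 0.278) by the brightest probe. Nr1d2 was called across the 4 title numbers (adjusted p = 0.0473), as were its second probe (0.0232), the second probe of Per3 (0.00864), Per2 (0.00898) and Nr1d1 (0.00511). The region means were 2.71 ± 0.16 in RV, 2.67 ± 0.13 in LV and 2.78 ± 0.08 in septum.

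**Figure D2:**
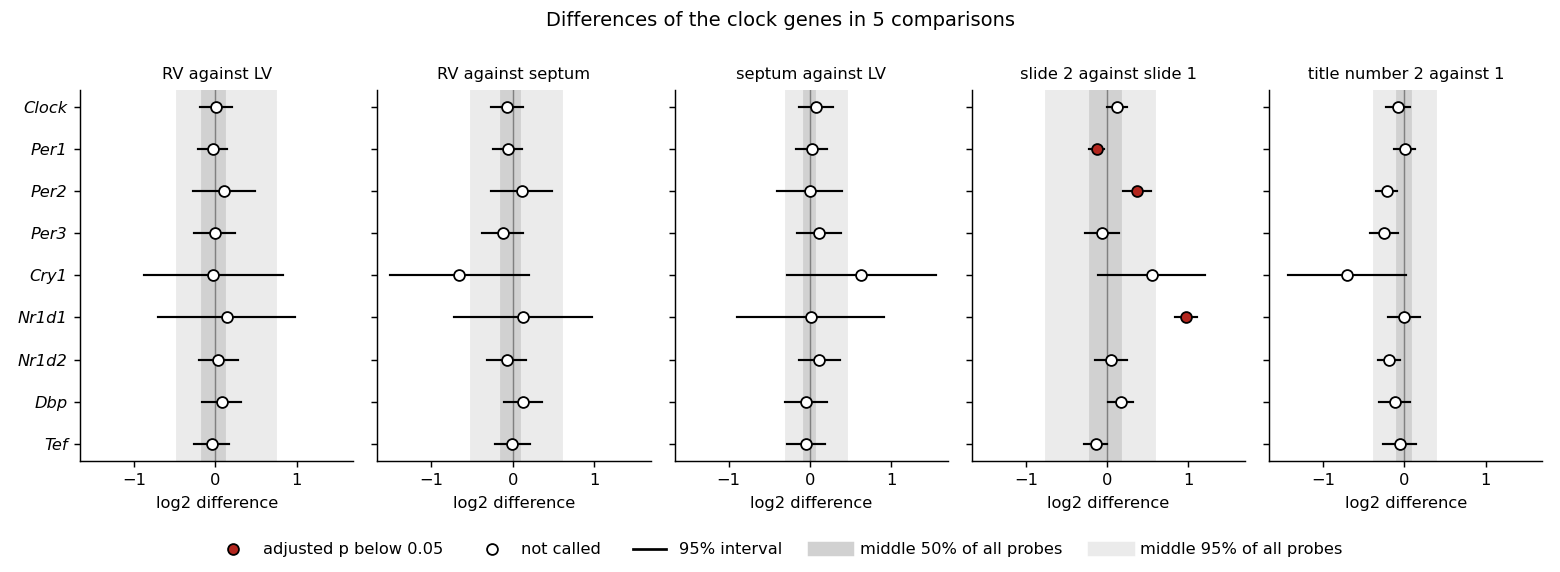
Log2 difference of each tested clock gene (points, brightest probe) with its 95% interval (lines) in 5 comparisons, over bands that hold the middle 50% and 95% of all 30234 probes, and with filled points for an adjusted p below 0.05. Nr1d1 at 0.97, Per2 at 0.37 and Per1 at -0.13 on slide 2 are the only filled points, the sign of Per1 turns to 0.02 under scaling by the median, and the intervals of Cry1 and Nr1d1 are the widest between regions.

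The plot of differences in 5 comparisons sets the clock genes against the array as a whole. The middle 95% of all probes ran from -0.75 to 0.59 between slides, and of the clock genes only Nr1d1 lay outside it. For number 2 against number 1 the middle 95% ran from -0.37 to 0.39, and only Cry1 lay outside, at -0.71, or inside at -0.30 without septum 2. Cry1, whose probe passed the filter only through the septum, also lay outside the middle 95% between regions. It was at -0.66 for RV against septum, where the band began at -0.51. For septum against LV it was at 0.63, where the band ended at 0.45. Both values lay inside these same bands without septum 1 or septum 3.

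Dbp, the PAR bZIP output factor, measured 6.08, 6.06 and 5.94 in RV1, LV1 and septum 1, and 5.85, 5.93 and 5.94 in RV2, LV2 and septum 2. It measured 6.30, 6.16, 6.08 and 6.04 in RV3, RV4, LV3 and septum 3. RV3 and RV4 were the highest arrays, and the rest of slide 2 overlapped slide 1. The slide difference was 0.17 (SE 0.07, adjusted p = 0.0713) by the brightest probe and 0.21 (SE 0.07, adjusted p = 0.0427) by the second, which was called. The difference was 0.26 in RV, 0.08 in LV and 0.10 in septum by the brightest probe. Region means were 6.10 ± 0.19 in RV, 6.02 ± 0.08 in LV and 5.97 ± 0.06 in septum.

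Tef, the other PAR bZIP factor of the set, was 6.09 to 6.35 on slide 1 and 5.99 to 6.17 on slide 2 by its brightest probe. The slide difference was -0.14 (SE 0.06, adjusted p = 0.0959), and it was 0.01 after scaling by the median. It was called without RV2 (-0.19, adjusted p = 0.0389), and was -0.07 without LV3 (adjusted p = 0.402). The other Tef probes differed by 0.08 (adjusted p = 0.367) and -0.17 (adjusted p = 0.155), so the 3 probes do not share a sign. Region means of the brightest probe were 6.15 ± 0.06 in RV, 6.20 ± 0.19 in LV and 6.16 ± 0.09 in septum.

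**Figure D3:**
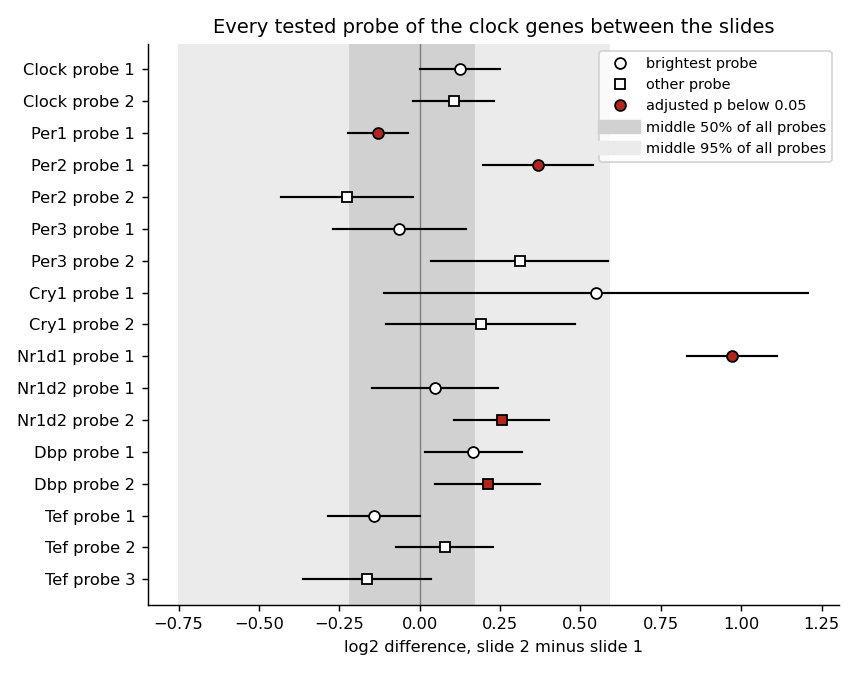
Log2 difference between slide 2 and slide 1 of all 17 tested probes of the clock genes (circles for the brightest probe of a gene, squares for the others, lines for 95% intervals, filled where the adjusted p is below 0.05), over bands for the middle 50% and 95% of all probes. Probes of Per2, Per3 and Tef lie on both sides of 0, the called Per1 probe at -0.13 moves to 0.02 under scaling by the median, and Nr1d1 has a single probe at 0.97.

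The plot of every tested probe shows where a gene's value depends on the probe. Both tested probes of Clock, Cry1, Nr1d2 and Dbp had positive differences, of which the second probes of Nr1d2 and Dbp passed the threshold, while those of Per2, Per3 and Tef disagreed in sign. A probe can sit on another part of the transcript or on another isoform, and which part each probe covers was not examined here.

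The rest of the clock loop was examined next with lists of related genes. Of 11 further genes of the core loop, 10 were tested, and 5 were higher and 0 lower on slide 2, beside the 43.8% of all probes called. The median difference of the 10 genes was 0.45. Nfil3, a repressor that competes with the PAR bZIP factors at D-boxes, measured 0.82 to 1.31 on slide 1 and 1.40 to 1.85 on slide 2, with a difference of 0.66 (SE 0.07, adjusted p = 0.000422). Bhlhe40, a repressor at E-boxes, measured -0.29 to 0.40 on slide 1 and 0.40 to 0.54 on slide 2 and rose by 0.61 (adjusted p = 0.00359). Timeless, the relative of a fly clock gene, rose by 0.43 (adjusted p = 0.00127). Hlf, the remaining PAR bZIP factor, rose by 0.53 (adjusted p = 0.0275), and was not called without RV1 (0.0602), RV2 (0.0616) or septum 2 (0.0505), nor without RV4 or among LV and septum arrays alone (0.28, adjusted p = 0.205). Ciart, a repressor of CLOCK and BMAL1, rose by 0.49 (adjusted p = 0.0344), and was not called without RV1 (0.0675), septum 1 (0.0504), RV2 (0.0733), LV2 (0.0615), RV4 (0.0503) or LV3 (0.0632), with a difference of 0.06 when its probes were averaged. None of the 10 genes was called between regions or between number 2 and number 1.

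Arntl, which encodes BMAL1 and is repressed by the REV-ERB proteins, measured -2.72, -2.87 and -3.07 in RV1, LV1 and septum 1, and -2.43, -2.36 and -2.46 in RV2, LV2 and septum 2. It measured -2.66, -2.16, -1.83 and -2.16 in RV3, RV4, LV3 and septum 3. Number 1 was below number 2 in each region, and RV3 was the array of slide 2 that lay within the range of slide 1. The slide difference was 0.47 (SE 0.19, adjusted p = 0.0717), and 0.60 without RV3 (adjusted p = 0.0274). Cry2, the paralog of Cry1, differed by 0.07 (SE 0.05, adjusted p = 0.332).

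Among 11 kinases, ubiquitin ligases and related regulators that modify clock proteins, 10 were tested, and 5 rose and none fell on slide 2, beside 43.8% of all probes called, 5937 higher and 7303 lower. Gsk3b, a kinase that phosphorylates several clock proteins, rose by 0.39 (adjusted p = 0.000471), or by 0.15 when its probes were averaged. The casein kinases Csnk1d and Csnk1e, which phosphorylate PER proteins, rose by 0.26 (adjusted p = 0.0037) and 0.18 (adjusted p = 0.0177), and Csnk1e was not called without septum 3 (0.14, adjusted p = 0.0927). With its probes averaged, Csnk1d differed by 0.11 (adjusted p = 0.265) and was not called. Prkaa2, a catalytic subunit of AMP-activated kinase, rose by 0.21 (adjusted p = 0.00754), and Fbxw11, an F-box protein that targets PER proteins, rose by 0.17 (adjusted p = 0.012). Neither was called among RV arrays alone (adjusted p = 0.101 and 0.107) or among LV and septum arrays alone (0.0771 and 0.143). Without region in the model both calls were lost too (0.308 and 0.166). Fbxw11 was also not called with normexp background correction (0.0684) or with no filter (0.0605). The median of the list was 0.10.

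Among 13 clock output genes, all tested, 3 rose and 1 fell on slide 2, beside the 43.8% of all probes called, and the median was 0.04. Cdkn1a, a cell cycle inhibitor, rose by 0.55 (adjusted p = 0.00828), and Por, the reductase that serves cytochrome P450 enzymes, rose by 0.45 (adjusted p = 0.00137). Lonrf3 rose by 0.27 (adjusted p = 0.0395), and was not called without RV1 (0.0825), RV2 (0.0939), RV3 (0.0709), RV4 (0.0999) or LV3 (0.134). Tsc22d3, which encodes the glucocorticoid-induced leucine zipper protein, fell by 0.38 (adjusted p = 0.00219). Wee1, a mitotic kinase with E-boxes in its promoter, was the single gene of these 4 lists called between regions, with RV higher than LV by 0.41 (SE 0.09, adjusted p = 0.0358). It measured 0.20, 0.01, -0.04 and -0.06 in RV1 to RV4 and -0.43, -0.37 and -0.35 in LV1 to LV3, so the regions did not overlap, as for 19.1% of all probes, and 3.86% of all probes were called. The call was kept without septum 1 and RV3 and was lost without any other array, with adjusted p from 0.0517 without septum 3 to 0.127 without LV1. It was also lost under median scaling (0.0928), with no filter (0.172), on slide 1 alone (0.0783) and with RV and LV compared alone (0.0684). The analysis of variance with Tukey correction did not call it after Benjamini-Hochberg adjustment of its F test. With the slide or the title number as a block it was called (0.00968 and 0.0203).

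Glucocorticoid-induced genes were listed because the hormone follows the time of day and stress, and Per1 is among its targets. Of 10 genes, 2 rose and 5 fell on slide 2, beside the 43.8% of all probes called, and the median was -0.20. Mt2, a metallothionein that binds metal ions, measured 5.94 to 6.80 on slide 1 and 5.10 to 5.69 on slide 2 and fell by 0.97 (adjusted p = 0.00374). Mt1 fell by 0.38 (adjusted p = 0.00768). Sgk1, a kinase of salt transport, fell by 0.27 (adjusted p = 0.029), and was not called without RV1 (0.0759), RV2 (0.0722), RV4 (0.0603) or septum 3 (0.0625), nor under scaling by the median (-0.12, adjusted p = 0.279) or among LV and septum arrays alone (-0.12, adjusted p = 0.242). Fkbp5, a co-chaperone of the glucocorticoid receptor, rose by 0.43 (adjusted p = 0.0015) by its brightest probe, and differed by -0.20 when its probes were averaged (adjusted p = 0.0628, not called). Tsc22d3 and Cdkn1a stand in this list too, and Per1 is the fifth gene that fell.

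**Figure D4:**
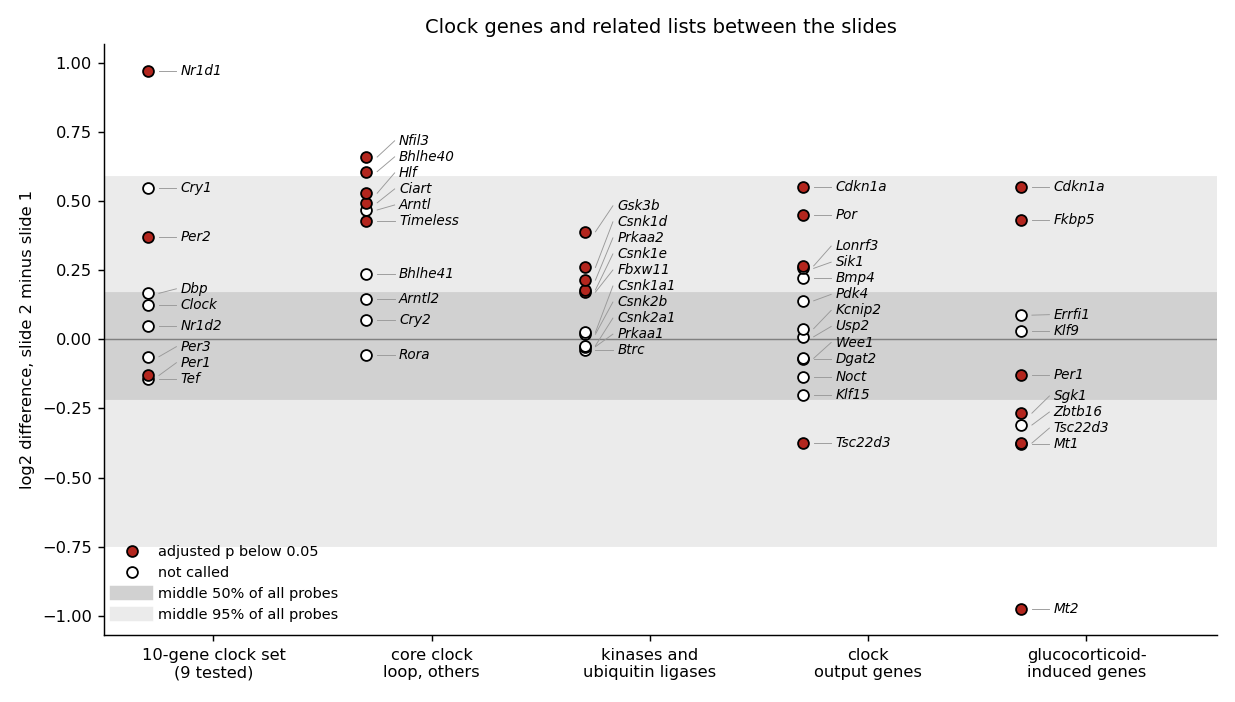
Log2 difference between slide 2 and slide 1 of the tested clock genes and of 4 related lists (brightest probe of each gene, filled where the adjusted p is below 0.05), over bands for the middle 50% and 95% of all probes. Nfil3 at 0.66 and Bhlhe40 at 0.61 are the highest of the other core loop genes and Mt2 at -0.97 is the lowest gene shown; Per1 at -0.13 turns to 0.02 under scaling by the median and Fkbp5 at 0.43 to -0.20 when its probes are averaged.

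The plot of the lists between slides places the clock genes beside their regulators and outputs. Of the genes shown, Nr1d1, Nfil3, Bhlhe40 and Mt2 lay outside the band that holds the middle 95% of all probes.

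Cell type markers moved with the slide as well. On slide 2, 6 of 10 cardiomyocyte markers, 3 of 8 endothelial and 3 of 8 fibroblast markers were higher, while 5 of 7 mesothelial and 4 of 8 macrophage markers were lower, beside the 43.8% of all probes called. None of these lists had a call in the other direction, and markers without a call took both signs in the fibroblast list, with Lum at -0.50 and Dcn at -0.17, and in the endothelial list, with Fabp4 at -0.25. The cardiomyocyte marker Pln was lower on slide 2, with 7.25 and 7.21 in RV1 and RV2 and 6.91 and 7.13 in RV3 and RV4. The mesothelial marker Wt1 rose in LV, from -0.30 and -0.11 to 0.55, and in septum, from -0.65 and -0.38 to 0.18. In RV it measured 0.66 and 0.73 on slide 1 and 0.44 and 0.69 on slide 2. The mean level of the cardiomyocyte markers was 8.24 to 8.39 on slide 1 and 8.27 to 8.55 on slide 2, and that of the mesothelial markers was -2.79 to 1.06 and -4.05 to 0.49. The macrophage markers averaged 1.62 to 2.09 on slide 1 and 1.25 to 1.90 on slide 2. The endothelial markers averaged 3.16 to 3.29 and 3.38 to 3.56, with no overlap. All 8 endothelial and all 8 macrophage markers were well above background on every array, and 2 of 8 mesothelial markers were. The part of these shifts in the slide differences of the clock genes was not tested. Between regions, 5 of 8 adipocyte markers and 3 of 8 fibroblast markers were higher in RV than in LV, beside 3.86% of all probes called. Of the other adipocyte markers, Plin4 measured 5.08 to 5.37 in RV and 5.28 to 5.51 in LV. Lep measured -0.49 to -0.06 in RV and -0.15 to -0.13 in LV, so both had a lower mean in RV. Between RV and septum, 6 of 7 mesothelial markers were higher in RV, beside 2.08% of all probes called. None of the 9 clock genes was called in these comparisons.

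Genes whose pattern over the arrays was most like that of the most variable members were named by the root mean square difference of levels, each gene centred on its own mean, among 14622 genes over the 10 arrays. For Nr1d1, whose SD was 0.50, the nearest were Rarg at 0.08, Ephx3 at 0.10, Hic1 at 0.11, Sh3d19 at 0.13 and Micall2 at 0.14. All 5 were higher on slide 2, by 0.79 to 1.07, which follows from picking them for likeness to Nr1d1 on these same arrays. For Cry1 the nearest were AA467197 at 0.23, Aurka at 0.24, Gja5 at 0.33, Sh3gl3 at 0.34 and Gsdmc at 0.35. None of the 10 genes belongs to the clock lists, and the arrays they share also share their slide and number.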

How the data were processed

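The authors hybridised Cy3-labelled cRNA of 10 heart samples to Agilent arrays and deposited intensity values from Agilent Feature Extraction (version 11.5.1.1, per the submitters' processing notes), subtracted for background and not scaled between arrays. A log2 table per probe, which the authors deposited and had made with GeneSpring, served as an alternative. Here control and outlier spots were left out, spots of a probe were averaged, and log2 processed signal was taken relative to the 75th percentile of each array. Of 56605 probes, 30234 were kept, namely those marked well above background on all arrays of some region. Symbols came from RefSeq accessions (32994 probes, 58.3%). A gene is given by its brightest tested probe. Groups came from the sample titles and slides from the barcodes of the arrays. The labels do not tie samples to animals, so p-values measure only the spread between these samples, which may be technical.

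Fits used limma (version 3.58.1, R 4.3.3) with all 10 arrays, two-sided tests and Benjamini-Hochberg adjustment over all probes. The region model had no covariate, and the slide and number models had region as a covariate. The fits were tested on simulated data with independent noise. The simulated data for the region model held no slide difference, so they do not cover that feature of these arrays. Deviations from region means correlated at 0.36 to 0.645 between arrays of the same number (9 pairs). They correlated at 0.09 to 0.577 between other numbers of the same slide (8 pairs) and at -0.564 to -0.207 between slides. The range of the same number overlaps that of other numbers, so it does not settle pairing, and the labels do not say what a number marks. The region model did not pair the samples, and the title number as a block was run as an alternative.

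The members and lists were chosen with earlier results of these data known, and 2 genes of the lists are not reported here. Besides the members, the rule names the list genes called in a comparison, up to 8 a list, as well as Arntl and Cry2, and for the 2 members with the largest SD the 5 genes most like them. Alternatives were quantile and median scaling, a 75th percentile over probes detected on all arrays, normexp background correction (offset 50, on the median signal since no mean signal column is held by the files), the authors' table, no filter, averaged probes, leaving out each array, slide or number as a block, each slide alone, the regions compared alone, and analysis of variance with Tukey correction, which the methods name. Slide differences among LV and septum arrays alone were added after the data were seen.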

Additional observations from a re-analysis of the deposited data

Results flagged for a closer look

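The dimmest Tef probe had 1 RV array apart from the rest, with levels of -2.11, -2.22, -2.09 and -2.11 in RV1 to RV4. The gap from RV2 to the nearest other array was 0.88 of the whole range of the 4 arrays. Chance sets about 1 in 20 such groups apart by this measure, and 17 probes were examined, so a single case carries little weight.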

How the results depend on the processing

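No tested member was called between any pair of regions under the 25 alternatives. With the replicate block (title number as a block) the count stayed at 0 in each pair. RV against septum was then -0.69 for Cry1, as a description, and -0.15 for Nr1d2 (95% interval -0.28 to -0.01, adjusted p = 0.159). The block changed no call of a member, while the count over all 30234 probes moved from 1167 to 4512 for RV against LV, from 628 to 2154 for RV against septum, and stayed at 0 for septum against LV. With the slide as a block the members called also stayed at 0 in each pair. The counts over all probes were then 5331 for RV against LV, 2643 for RV against septum and 14 for septum against LV. The count of members called between slides was 1 among RV arrays alone, beside 5531 of all probes against 13240 with all arrays, and 2 to 4 when arrays were left out in turn, beside 10056 to 12777. Across all title numbers it was 6 with median scaling, 1 with no filter and 2 to 4 with arrays left out, beside 11971 of 30234, 891 of 56605 and 3098 to 11783 of all probes, against 8556 in the analysis as reported. Slide differences changed sign under median scaling for Per1 (0.0202), Per3 (0.088) and Tef (0.00832), when probes were averaged for Per3 (0.12) and Fkbp5 (-0.20), among RV arrays alone for Per3 (0.0753), and without RV4 for Nr1d2 (leave-one-out range -0.0157 to 0.10). The cause was not tested, apart from the shift that median scaling gives to all probes. Nr1d1 ranged from 0.89 to 1.12 and kept its call under all 20 alternatives, while Dbp was called in 3, Cry1 and Tef in 2 and Clock in 1 of the 21 settings. Over all results and alternatives, 854 values kept their direction and side of the threshold or stayed within the spread, 86 lost a call and 13 gained one. The interaction of region and slide could not be fitted without LV3 or septum 3, the single arrays of their regions on slide 2. The number of arrays, 3 or 4 a region, limits the precision, and the dim probes of Cry1 and Npas2 are limited by background.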
